A study of Homo sapiens with 5 samples.

Results

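The 4 genes SNORD3A, SNORD3B-1, SNORD3B-2 and SNORD3C encode U3 small nucleolar RNA. Their regions were taken from 5 CLIP-Seq lists by gene name: every region whose same-strand gene annotation held one of these names was kept. This gave 16 regions of the 3147 listed in all. All 4 genes were listed with GFP, without transfection and in the second GFP-(GR)50 library. With GFP-(GP)10 there were regions at 3 of them, and in the first GFP-(GR)50 library at 1.

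U3 is the most abundant box C/D snoRNA of the nucleolus. Most RNAs of this class guide methylation of ribosomal RNA (rRNA), whereas U3 base-pairs with the 5′ external transcribed spacer and the small-subunit part of the rRNA precursor and is needed for the early cleavages that release the small-subunit rRNA. It works inside the small-subunit processome, a large particle that assembles on the precursor. U3 is transcribed from genes of its own with their own promoters, whereas most human snoRNAs are cut out of introns of host genes.

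The cells were HEK-293, a human embryonic kidney line, and the lists hold bound RNA, so the identity of the cells was not checked by marker genes. In CLIP-Seq, ultraviolet light crosslinks RNA to protein, the RNA is trimmed with RNase, and the protein is pulled down with its RNA for sequencing. The question was which RNA is bound by poly-GR, a glycine-arginine dipeptide repeat translated from the C9ORF72 expansion of ALS and FTD. Cells received, by lipofection, GFP joined to 50 such repeats, GFP-(GR)50, or to 10 glycine-proline repeats, GFP-(GP)10, or GFP without repeats. A last group was not transfected, and beads that bind GFP were used on all. RNA was taken from the same size range of the membrane in every group. Experiment 1, digested with RNase I at 0.04 units/ml, compared GFP-(GR)50 replicate 1 with GFP. In experiment 2, at 0.02 units/ml of the enzyme, GFP-(GR)50 replicate 2 stood beside GFP-(GP)10 and cells without transfection. GFP-(GR)50 thus had 2 libraries from independent experiments and each control 1, and a repeat of 10 units is shorter than one of 50, so length and sequence of the repeat cannot be told apart in that control. Each test below compares the reads of 2 libraries, not the conditions.

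The listed reads include multimapping reads, to which the authors applied a scaling, and numbered between 7468 (GFP-(GP)10) and 134222 (GFP-(GR)50 replicate 2) per library. The smallest listed region had 5 reads. A U3 gene missing from a list is therefore taken as one below that level, not as one that had no read. With GFP-(GR)50, 97.1% (replicate 1) and 94.8% (replicate 2) of the listed reads were rRNA, whereas the controls ranged from 54.2% without transfection to 72.4% for GFP-(GP)10. This large and unequal rRNA share sets what any other share can be. Shares of U3 are therefore given both of all listed reads and of the reads outside rRNA.

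The genes lie on chromosome 17 in 2 pairs (hg38, coordinates as the files give them). The files identify them as ENSG00000263934 (SNORD3A), ENSG00000265185 (SNORD3B-1), ENSG00000262074 (SNORD3B-2) and ENSG00000264940 (SNORD3C). In GFP-(GR)50 replicate 2, SNORD3B-1 spanned 19061911 to 19062128 on the plus strand and SNORD3B-2 spanned 19063919 to 19064136 on the minus strand, 1791 bp apart. SNORD3A spanned 19188015 to 19188232 on the plus strand and SNORD3C spanned 19190028 to 19190245 on the minus strand, 1796 bp apart. The genes of each pair point towards each other, and the pairs lie 123879 bp apart. Each of the 16 regions carried the U3 gene as its only same-strand gene name and was typed as snoRNA. No U3 sequence is printed, since the tables used here hold none for these genes.

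None of the 16 regions held a single read that maps to one place. Every listed U3 read therefore fitted at least 1 further place in the genome, and no read is proper to 1 of the 4 genes. How the authors divided such reads among places is unknown here, so the levels of the 4 genes cannot be taken as independent. Among all regions outside rRNA, those without such a read were fewer. Their part was 34.9% (GFP) and 36.2% (GFP-(GR)50) in experiment 1. In experiment 2 it was 4.26% without transfection, 16.9% for GFP-(GP)10 and 9.82% for GFP-(GR)50.

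SNORD3A was the one U3 gene listed in every library. Experiment 1 gave it 18.66 reads with GFP and 5.34 with GFP-(GR)50. Experiment 2 gave it 13.61 without transfection, 8.81 with GFP-(GP)10 and 29.8 with GFP-(GR)50. The GFP-(GR)50 libraries thus held both the lowest and the highest level of listed reads, on either side of all 3 controls. Reads here and in the next paragraph are not divided by library totals. As a share of all listed reads, SNORD3A was lower in both GFP-(GR)50 libraries (0.00944% and 0.0222%) than in the controls (0.0604% to 0.118%). Outside rRNA it was 0.327% and 0.426%, with controls from 0.132% to 0.428%.

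SNORD3B-1 had 17.14 reads with GFP, 12.52 without transfection, 6.31 with GFP-(GP)10 and 28.33 in the second GFP-(GR)50 library. SNORD3B-2 had 16.99, 11.82, 6.31 and 27.84 listed reads in the same order. SNORD3C had 17.99 reads with GFP, 10.37 without transfection and 26.59 in the second GFP-(GR)50 library, and no region with GFP-(GP)10. All 3 genes were highest in the second GFP-(GR)50 library and had no listed region in the first.

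**Figure D1:**
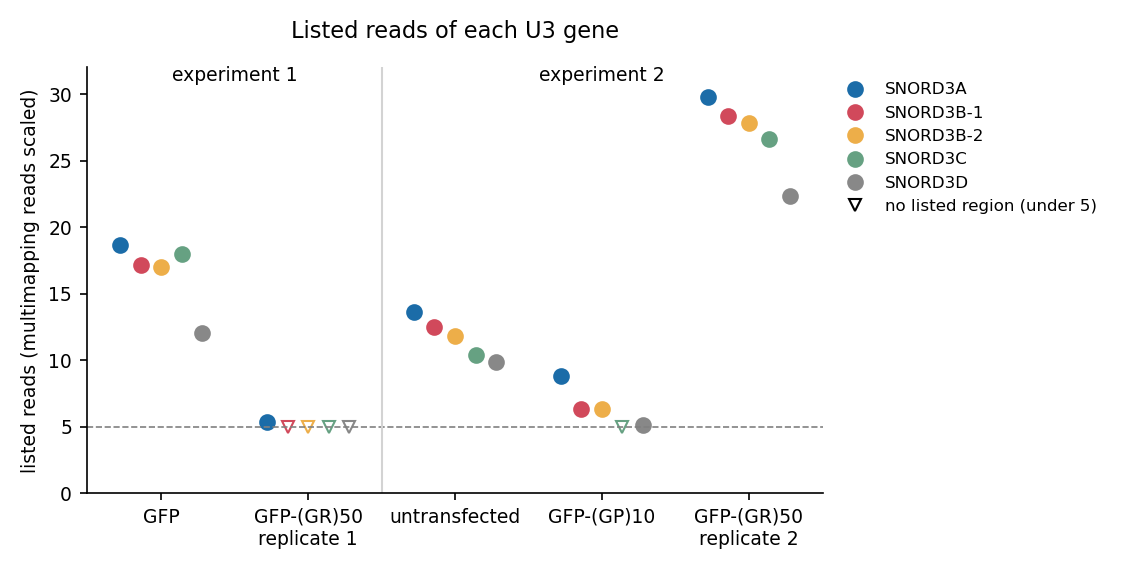
Listed reads (vertical axis) of each U3 gene in the 5 libraries (horizontal axis), with 1 point per gene and library. Open triangles on the dashed line at 5 reads mark genes without a listed region. GFP-(GR)50 replicate 2 holds the highest points, and in replicate 1 SNORD3A alone is listed, at 5.34.

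Within a library the copies were close to each other. SNORD3A was the highest in each of the 4 libraries that listed more than 1 of the genes. The gap from the highest to the lowest listed gene was 8.95% of the highest level with GFP and 10.8% in GFP-(GR)50 replicate 2. It was 23.8% without transfection and 28.4% among the 3 genes listed with GFP-(GP)10. SNORD3C was the lowest without transfection and in GFP-(GR)50 replicate 2, whereas with GFP it came next after SNORD3A. With no unique read and levels this low, the order of the copies is a description only.

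A further gene of the family, SNORD3D, is no member of the list and had no uniquely mapping read either. Its regions on the minus strand of the same stretch, with the lncRNA AC007952.4 as a second gene name, had 12.07 reads with GFP, 9.88 without transfection, 5.15 with GFP-(GP)10 and 22.35 in the second GFP-(GR)50 library. In each of these libraries SNORD3D lay below every listed member. As for 3 of the members, GFP-(GR)50 replicate 1 listed no SNORD3D region.

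The listed regions of each gene covered nearly the same stretch in every library that listed it. The 217 bp from the first to the last listed base of each gene were taken as its span, so the widest regions cover 100% by definition. How much of the annotated RNA they cover was not measured. Regions covered 100% of the span in all 4 genes without transfection and in GFP-(GR)50 replicate 2. Regions of the GFP list covered 99.5%: their lower coordinate was 1 base higher on both strands, which is the 5′ end of the RNA on the plus strand and its 3′ end on the minus strand. The sources used here do not say whether each list numbers bases from 0 or from 1, so this base may not be a difference in the RNA. In GFP-(GP)10 each of the 3 listed genes lacked the first 12 bases at the 5′ end of the span, on both strands, and reached its 3′ end. In GFP-(GR)50 replicate 1 the SNORD3A region began 6 bases from the start of the span, as the files give it, and reached the 3′ end. The libraries whose regions were short at the 5′ end by more than 1 base were those with the fewest U3 reads.

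SNORD3D differed more between libraries. Its region ran over 217 bp in GFP-(GR)50 replicate 2 and 208 bp with GFP. Without transfection it was 126 bp long and with GFP-(GP)10 118 bp, where the 5′ part was not listed. In both short regions the listed part ended at the same 3′ end.

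**Figure D2:**
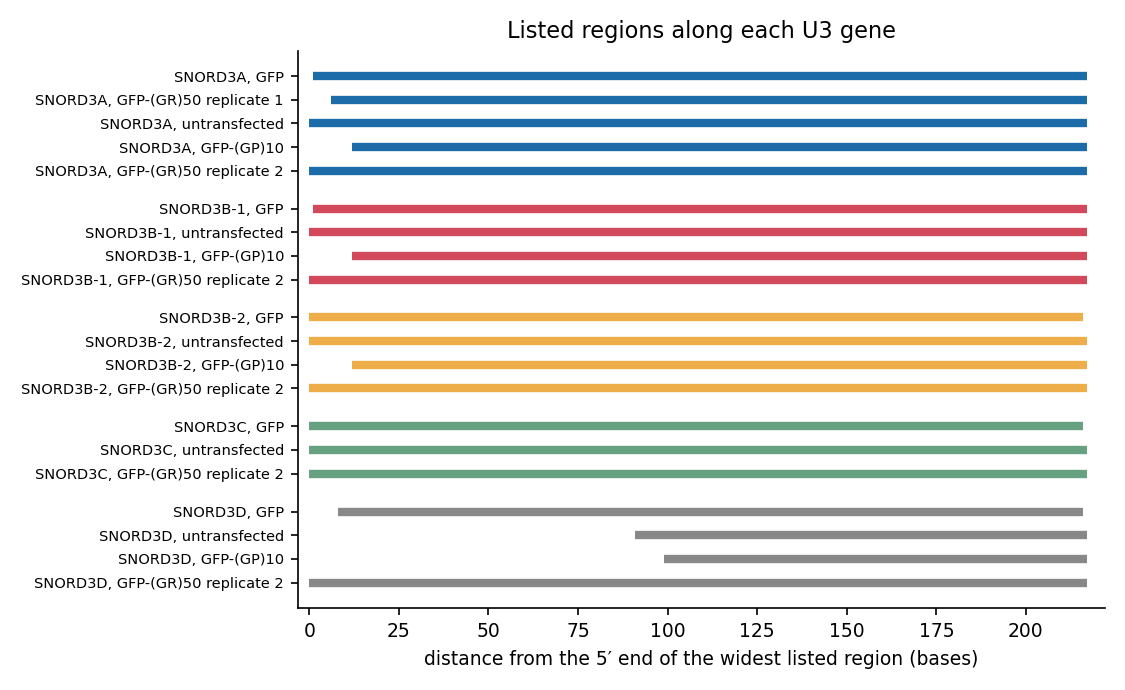
Each bar is 1 listed region, drawn from its distance in bases to the 5′ end of the gene's widest listed region (horizontal axis), for each gene and library. Regions of the 4 genes run over nearly the whole of that widest region in all libraries that list them, with 12 bases missing at the 5′ end in GFP-(GP)10. SNORD3D is short without transfection (126 bp) and with GFP-(GP)10 (118 bp).

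Summed over the 4 genes, U3 had 70.78 reads with GFP and 5.34 with GFP-(GR)50 in experiment 1. In experiment 2 it had 48.32 without transfection, 21.43 with GFP-(GP)10 and 112.56 with GFP-(GR)50. If each unlisted gene had just missed the minimum of 5 reads, the sum would reach 20.34 for GFP-(GR)50 replicate 1 and 26.43 for GFP-(GP)10. Either way the order of the libraries by U3 reads stayed the same at its top, with the second GFP-(GR)50 library first and GFP next.

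Of all listed reads, U3 took a smaller share in both GFP-(GR)50 libraries than in any control. In experiment 1 it was 0.00944% (0.00287 to 0.0206) for GFP-(GR)50 against 0.231% (0.181 to 0.293) for GFP. In experiment 2 it was 0.0839% (0.0694 to 0.101) for GFP-(GR)50, 0.215% (0.157 to 0.283) without transfection and 0.287% (0.174 to 0.430) for GFP-(GP)10. The brackets give 95% intervals by the exact Clopper-Pearson method after rounding the reads. They cover counting error alone and are too narrow, since scaled reads are not independent. With unlisted genes at 5 reads, the ratio of GFP-(GR)50 replicate 1 to GFP was at most 0.155, so on this scale its lower share does not rest on the genes below the minimum.

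Of the reads outside rRNA, the order changed. In experiment 2 U3 took 1.61% (1.33 to 1.94) with GFP-(GR)50, more than the 0.469% (0.344 to 0.617) without transfection. GFP-(GP)10 lay between them at 1.04% (0.632 to 1.55), with an interval that overlaps that of GFP-(GR)50. In experiment 1 GFP-(GR)50 had 0.327% (0.0994 to 0.713) and GFP 0.642% (0.503 to 0.812), with overlapping intervals. Over both GFP-(GR)50 libraries the mean share was 0.968% ± 0.907 (SD, n = 2), a spread almost as large as the mean.

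**Figure D3:**
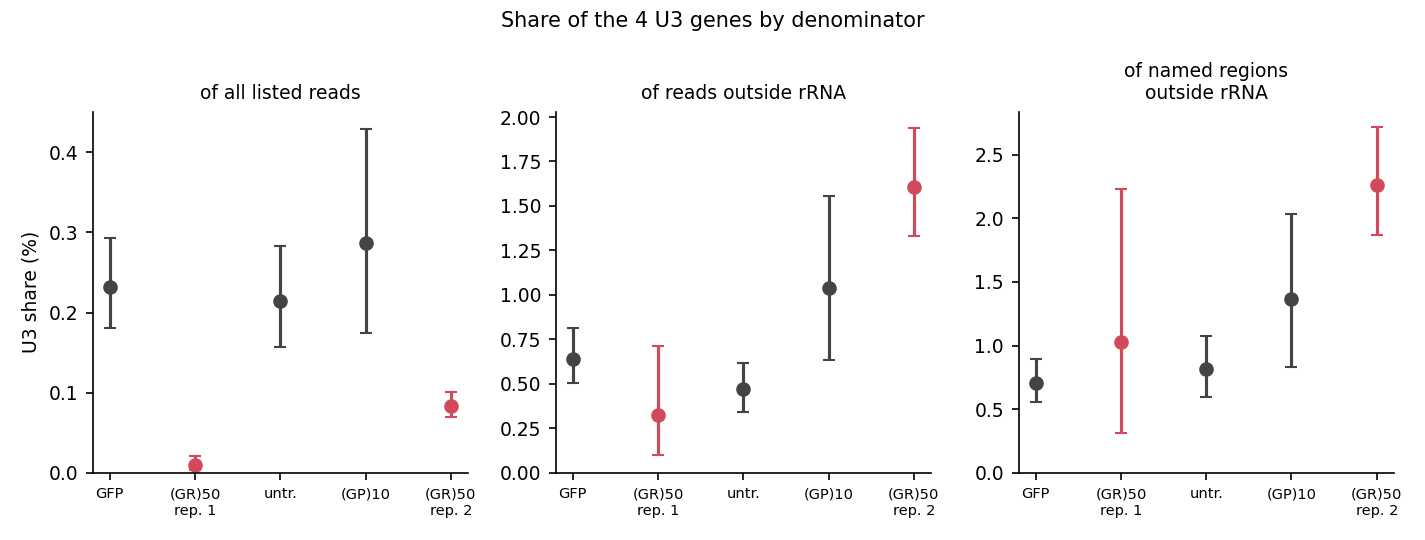
Share of the 4 U3 genes in percent (vertical axes, which differ between panels) of all listed reads, of reads outside rRNA and of reads in named regions outside rRNA, for the 5 libraries. Named regions have a gene name or an RNA type. Points are values and bars exact 95% intervals of counting error, with GFP-(GR)50 in red: both red points lie below every control in the first panel (0.00944% and 0.0839%), and replicate 2 lies highest in the others (1.61% and 2.26%).

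Set directly against rRNA, U3 had 3.62 listed reads per 1000 rRNA reads with GFP, 3.96 without transfection and 3.96 with GFP-(GP)10. With its unlisted gene at 5 reads, GFP-(GP)10 would reach at most 4.89. By listed reads the 3 controls, from both experiments and both amounts of RNase I, thus lay close together. GFP-(GR)50 replicate 1 had 0.0972 per 1000 rRNA reads, or at most 0.370 with unlisted genes at 5 reads, and GFP-(GR)50 replicate 2 had 0.885. The 2 GFP-(GR)50 libraries lay below all 3 controls on this measure, and as a ratio they differed from each other by more than the controls did. These values repeat the contrast in rRNA share given above and are no separate measurement of U3.

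The ratios of the GFP-(GR)50 share to that of its own control put numbers on both scales. In experiment 2, U3 took 3.43 times (2.45 to 4.97) the share of untransfected cells among reads outside rRNA and 0.391 times (0.279 to 0.566) among all listed reads. Against GFP-(GP)10 the ratios were 1.55 (0.989 to 2.66) and 0.292 (0.187 to 0.502). In experiment 1 the ratio to GFP was 0.509 (0.150 to 1.16) outside rRNA and 0.0408 (0.0120 to 0.0931) among all listed reads. GFP-(GP)10 and untransfected cells, which are both controls, differed 2.22-fold (1.24 to 3.72) outside rRNA. The excess of GFP-(GR)50 replicate 2 over GFP-(GP)10 was smaller than this spread between controls.

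The direction outside rRNA turned with one processing choice. Experiment 2 listed regions without annotation on the contig ML143377.1, and those that matched annotated rRNA in width and reads were counted as rRNA. They held 25739 reads with GFP-(GR)50, 2445 without transfection and 1110 with GFP-(GP)10. With them among the other reads, the ratio to untransfected cells was 0.907 (0.649 to 1.31) and that to GFP-(GP)10 was 0.509 (0.325 to 0.874). Regions with neither a gene name nor an RNA type, called unnamed here, also took unequal parts of the reads outside rRNA. In experiment 1 their part was 9.17% for GFP and 68.3% for GFP-(GR)50. In experiment 2 it was 42.6% without transfection, 23.7% for GFP-(GP)10 and 28.7% for GFP-(GR)50. With unnamed regions left out, the ratios were 1.46 (0.428 to 3.32) against GFP, 2.77 (1.98 to 4.00) against untransfected cells and 1.66 (1.06 to 2.85) against GFP-(GP)10.

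**Figure D4:**
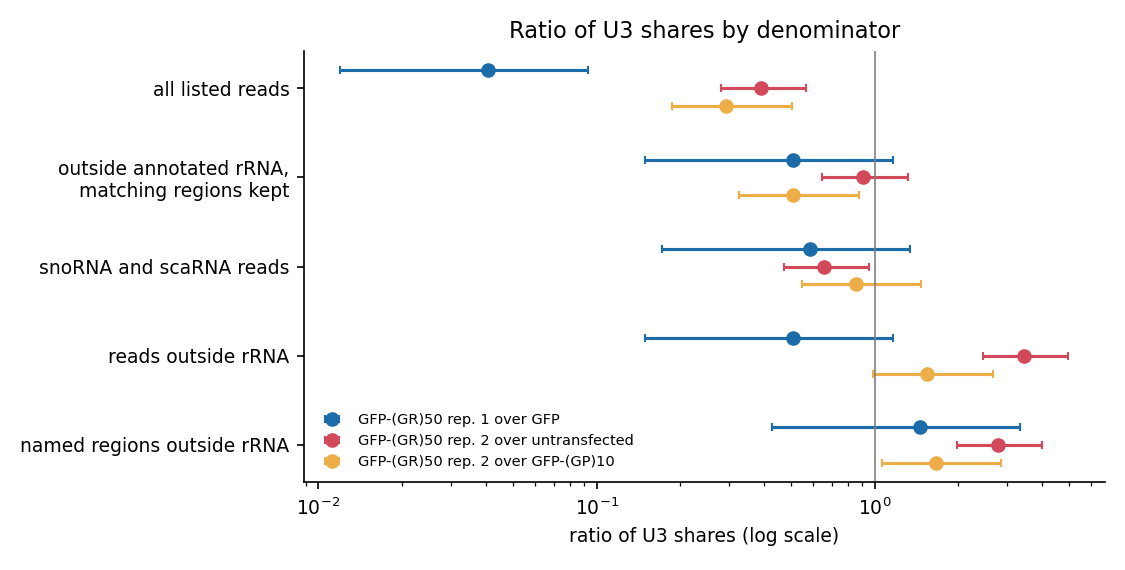
Ratio of the U3 share in GFP-(GR)50 to that in its control (horizontal log axis), for 5 choices of the reads counted as the total (rows) and 3 comparisons (colours), with 95% intervals of counting error. Among all listed reads every ratio is below 1 (0.0408, 0.391 and 0.292), whereas outside rRNA the ratio to untransfected cells is 3.43.

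Each gene was then read against all gene names outside rRNA. Names with at least a 2-fold ratio of shares outside rRNA were counted, and a name listed on 1 side only was set to 5 reads on the other, which makes its ratio a bound. Unequal totals outside rRNA fix some calls: 1634 reads in replicate 1 against 11025 with GFP, and 6995 in replicate 2 against 2061 with GFP-(GP)10. Any name listed in replicate 1 but not with GFP passes higher. Any name listed with GFP-(GP)10 but not in replicate 2 passes lower. The percentages of all names passing 2-fold against these controls include such names. Against untransfected cells, 4 of 4 U3 genes passed 2-fold on the higher side, where 16.6% of 1091 names did so. Of the 115 names listed in both libraries, as the 4 genes were, 22.6% did. The ratios were 3.23 for SNORD3A, 3.33 for SNORD3B-1, 3.47 for SNORD3B-2 and 3.78 for SNORD3C. Reads of the 115 names listed in both libraries were tested name by name (Fisher's exact test, two-sided, p adjusted by Benjamini-Hochberg over these names). The adjusted exact p was 0.00256 for SNORD3A, 0.00297 for SNORD3B-1, 0.00251 for SNORD3B-2 and 0.00103 for SNORD3C. By this test 13% of the names (15) passed on the higher side, the 4 U3 genes among them, and 2.61% on the lower, beside 2.75% past 2-fold on the lower side. SNORD3D passed as well (adjusted exact p = 0.0115, Fisher's exact test). The lncRNA AC007952.4, the second gene name of its region, had the same ratio of 3.33. The percentages of names on the higher side thus include several names that rest on reads of the U3 family. Since none of the 4 U3 genes had a unique read, their 4 results are counted as 1.

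Against GFP-(GP)10, none of the 4 genes passed 2-fold in either direction, where 3.66% of 601 names passed on the higher and 24.8% on the lower side. SNORD3A had a ratio of 0.996 (0.455 to 2.35; adjusted exact p = 1, Fisher's exact test, 65 names). The ratio was 1.32 (0.559 to 4.06) for SNORD3B-1 and 1.30 (0.559 to 4.06) for SNORD3B-2, both with an adjusted exact p of 0.839. SNORD3C, unlisted in GFP-(GP)10, had a ratio of at least 1.57, a bound that could pass on neither side. Of the 65 names, 6.15% passed the test on the higher and 32.3% on the lower side. The interval of SNORD3A allows more than a 2-fold difference either way.

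Against GFP, none of the 4 genes passed 2-fold, where 19.8% of 268 names passed on the higher and 14.6% on the lower side. SNORD3A had a ratio of 1.93 (0.518 to 4.92; adjusted exact p = 0.251, Fisher's exact test, 30 names). The ratios of the unlisted genes were at most 1.97 for SNORD3B-1, 1.99 for SNORD3B-2 and 1.88 for SNORD3C, bounds that could pass on neither side. Of the 30 names, 63.3% passed the test on the higher and 10% on the lower side. With unnamed regions left out of the total, SNORD3A was called higher, at 5.53 times (1.48 to 14.1) the share of GFP (adjusted exact p = 0.00666, Fisher's exact test). On that total 22% of all names passed 2-fold on the higher side and 86.7% of the 30 names passed the test there. The sum of the genes, with a ratio of 0.509, and SNORD3A alone thus point in opposite directions, and the direction outside rRNA in experiment 1 is set by genes below the minimum.

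Among all listed reads the same genes were counted lower. All 4 passed 2-fold on the lower side against GFP, where 72% of all names did, and against untransfected cells, where 65.3% did. Against GFP, the calls of SNORD3B-1, SNORD3B-2 and SNORD3C rest on upper bounds, since replicate 1 did not list them. Against GFP-(GP)10 3 of 4 passed, where 29% of all names did. SNORD3C, unlisted there, had a lower bound of 0.296 that could pass on neither side. Replicate 2 had 134222 listed reads, against 22519 without transfection and 7468 with GFP-(GP)10. Any name listed in either control but not in replicate 2 thus passes lower, and the percentages of all names include such names. Of the names listed in both libraries, 83.3% passed 2-fold lower against GFP, 94.8% against untransfected cells and 93.8% against GFP-(GP)10. SNORD3A had 0.155 times the share of GFP (adjusted exact p = 2.03e-05, Fisher's exact test), 0.367 times that of untransfected cells (adjusted exact p = 0.00533) and 0.188 times that of GFP-(GP)10 (adjusted exact p = 0.000231). Of the names listed in both libraries, 83.3% passed the test on the lower side against GFP, 93% against untransfected cells and 93.8% against GFP-(GP)10, so a lower share on this scale was common to most names.

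The rank of a ratio among the names listed in both libraries is the same whichever total the shares are taken of. Against untransfected cells the U3 genes ranked from 9 (SNORD3C) to 15 (SNORD3A) of 115 from the highest ratio down, and the median name had a ratio of 1.09 outside rRNA. Against GFP-(GP)10 they ranked 5 (SNORD3B-1), 6 (SNORD3B-2) and 10 (SNORD3A) of 65, with a median of 0.460. Against GFP, SNORD3A ranked 21 of 30, below the median of 2.84. The listed U3 genes thus lay in the upper part of the names in experiment 2, and SNORD3A in the lower part in experiment 1. The 2 GFP-(GR)50 libraries also differed in RNase I. In experiment 1 the other U3 genes have no rank, and SNORD3A had 5.34 reads, near the minimum, with an interval (0.518 to 4.92) that holds the median. The medians also depend on the minimum, since a name listed in both needs 5 of 1634 reads outside rRNA in replicate 1, or 5 of 2061 with GFP-(GP)10.

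**Figure D5:**
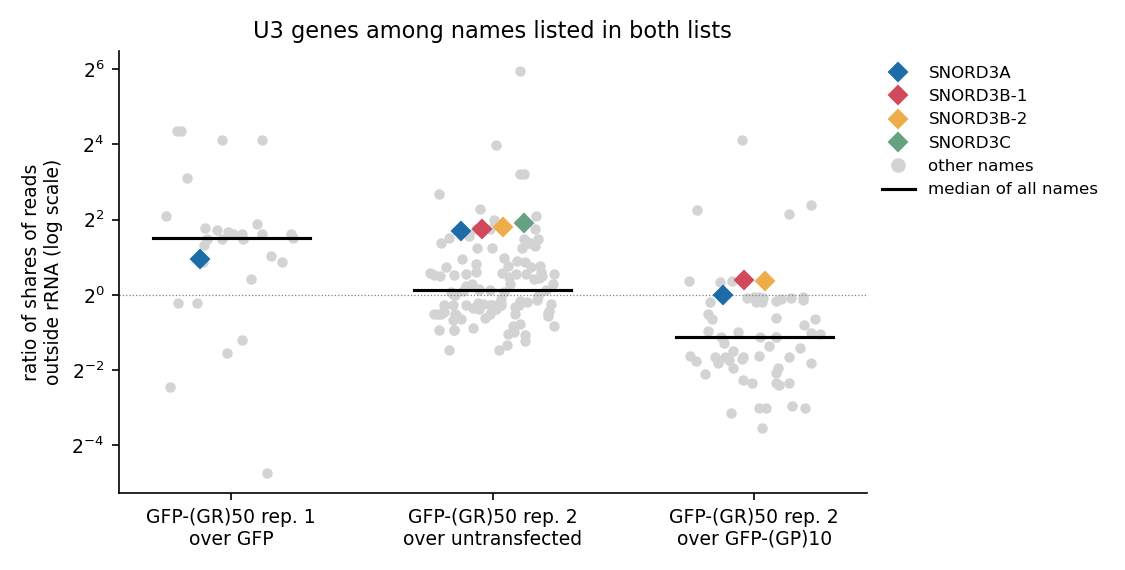
Ratio of the share of reads outside rRNA in GFP-(GR)50 to that in the control (vertical log axis) for every gene name listed in both libraries of a comparison (grey points), with U3 genes as coloured diamonds and the median of all names as a black line. The listed U3 genes lie above the median of 1.09 and 0.460 in experiment 2. In experiment 1 SNORD3A, the only U3 gene listed in both libraries, lies below the median of 2.84, with 5.34 reads in GFP-(GR)50.

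By position in its own list, U3 stood highest in GFP-(GR)50 replicate 2. Its genes ranked 24, 25, 26 and 31 of 682 regions outside rRNA there by listed reads. SNORD3A ranked 96 of 1267 without transfection, 49 of 267 with GFP-(GP)10, 141 of 393 with GFP and 53 of 69 in GFP-(GR)50 replicate 1. These lists differ in length, so their ranks show no change.

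Beside the other small RNAs of the same list, U3 gave no single order. For every 100 reads of 7SK RNA, which holds the elongation factor P-TEFb inactive in the nucleus, there were 158 U3 reads with GFP, 316 without transfection and 197 with GFP-(GP)10. GFP-(GR)50 replicate 1 had 3.94, or at most 15.0 with unlisted genes at 5 reads, and replicate 2 had 17.5. Both GFP-(GR)50 lists thus had fewer U3 than 7SK reads and all 3 controls more. The 7SK reads came from 10 and 26 listed regions with GFP-(GR)50, 4 with GFP and 1 in each other control, and 7SK copies below the minimum are not counted.

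For every 100 reads of the spliceosomal and other snRNAs there were 9.40 U3 reads with GFP and 2.86 with GFP-(GR)50 in experiment 1, the latter at most 10.9 with unlisted genes at 5 reads. Experiment 2 gave 7.84 without transfection, 41.7 with GFP-(GP)10 and 26.4 with GFP-(GR)50, so the 2 controls of experiment 2 lay on either side. Per 100 tRNA reads the values were 0.842 (GFP) and 14.7 (GFP-(GR)50, at most 55.8 with unlisted genes at 5 reads) in experiment 1, and 85.1 without transfection, 2.94 (GFP-(GP)10) and 23.9 (GFP-(GR)50) in experiment 2. The class totals differed far more than U3: tRNA held 8407 reads with GFP and 56.76 without transfection.

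U3 made up most of the listed snoRNA reads in 4 of the 5 libraries. The share of the 4 genes in all snoRNA and scaRNA reads was 55.8% (GFP) and 32.7% (GFP-(GR)50) in experiment 1, and 83.0% without transfection, 63.8% (GFP-(GP)10) and 54.6% (GFP-(GR)50) in experiment 2. SNORD3D counts in this total but not among the 4 genes. With SNORD3D added to them, they held 58.2 of 58.2 reads without transfection and 26.58 of 33.58 with GFP-(GP)10. Below, other snoRNAs leave SNORD3D out. In GFP-(GR)50 replicate 1, the exception, U3 had 48.5 reads per 100 reads of other snoRNAs, or at most 185 with unlisted genes at 5 reads, so the minimum sets this order. Apart from SNORD3D, the untransfected list held no other snoRNA region, GFP-(GP)10 held 1, GFP-(GR)50 replicate 1 held 2, GFP held 7 and GFP-(GR)50 replicate 2 held 9. All 19 of these had uniquely mapping reads, and none had more than 11 listed reads.

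Among the other box C/D snoRNAs, SNORD118, which encodes the U8 RNA needed for maturation of the large-subunit rRNA, had 10.5 reads with GFP and 7 in the second GFP-(GR)50 library. SNORD15A, within RPS3, had 5.5 and 8 reads in the same libraries. Of 7 names starting with SNORD outside the members, SNORD3D included, GFP-(GR)50 replicate 1 listed 0 and replicate 2 listed 6. Against untransfected cells 3 of 6 with a region (SNORD3D, SNORD118 and SNORD15A) passed 2-fold on the higher side, where 16.6% of all names did, and 1 of 6 did with unnamed regions left out of the total. None passed in the other comparisons, where few of them could. Against GFP all 5 with a region were unlisted in GFP-(GR)50 replicate 1, with upper bounds such as 2.80 (SNORD3D) and 6.75 (SNORD35B). Such bounds pass on neither side. Against GFP-(GP)10 only SNORD3D was listed in both, at 1.28, and the rest had too few reads for either call. Of 7 box H/ACA names, which guide pseudouridylation, none was listed in more than 1 library. Of these, 2 of 4 with a region passed on the higher side against GFP (19.8% of all names) and 2 of 2 against untransfected cells (16.6%), the latter 1 of 2 with unnamed regions left out. The 2 against GFP, SNORA51 and SNORA53, were listed in GFP-(GR)50 replicate 1 alone, so the 5-read rule fixed their calls. Against GFP-(GP)10 1 of 3, SNORA75, passed on the lower side (24.8%). It was listed with GFP-(GP)10 alone, so this call was fixed as well. Among all listed reads no name of the small RNA and protein lists passed on the higher side in any comparison, but the totals left little room for it. A name unlisted in a control was set to 5 reads of a smaller total: 134222 reads in replicate 2 stood against 22519 without transfection. Even RMRP, described below, with 31.5 reads in replicate 2, had a bound of only 1.06 against untransfected cells. The Cajal body RNA SCARNA2 had 6 reads with GFP and 10 in the second GFP-(GR)50 library, at least 2.95 times the share of untransfected cells.

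RMRP and RPPH1, the RNAs of RNase MRP and RNase P, are not snoRNAs by sequence, but RMRP acts in the nucleolus on the same rRNA precursor. RMRP had 17 reads with GFP, 8 in the first and 31.5 in the second GFP-(GR)50 library, with no region in the other controls. Its share outside rRNA was 3.18 times (1.19 to 7.76) that of GFP (adjusted exact p = 0.0147, Fisher's exact test), where the median of the 30 names was 2.84 and 63.3% passed higher. Among all listed reads it was 0.254 times (0.0950 to 0.622) that of GFP and counted lower (adjusted exact p = 0.00139, Fisher's exact test). Against untransfected cells the ratio outside rRNA was at least 9.28. It was higher than U3 in rank against GFP, at 10 of 30. RPPH1 was listed in GFP-(GR)50 replicate 2 alone, with 25 reads over 2 regions. Most reads of both map to one place.

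Messenger RNAs of the proteins that work with U3 were nearly absent from the lists. Of 38 genes for U3 particle and small-subunit processome proteins, 5 had a region in any library and none had more than 7 reads. NOP56, a core protein of box C/D particles, had 6 reads in GFP-(GR)50 replicate 1 and 5 in replicate 2, and its region in replicate 1 lay on the intronic snoRNA SNORA51. NOP58, its partner, had 6 reads in untransfected cells. UTP6, WDR43 and BMS1, of the processome, had 7, 6.04 and 6 reads in GFP-(GR)50 replicate 2. Outside rRNA, 1 of 1 name with a region passed 2-fold on the higher side against GFP, which is NOP56 with its reads on SNORA51 (19.8% of all names). NOP56 was not listed with GFP, so the 5-read rule fixed this call. Against untransfected cells 1 of 5 passed (16.6% of all names), or 0 of 5 with unnamed regions left out, and against GFP-(GP)10 0 of 4. Those 4 were unlisted with GFP-(GP)10 and had too few reads for either call. None passed on the lower side, where by the 5-read rule none of them could. Of 8 further genes for nucleolar proteins, NPM1 had 5 reads with GFP, GNL3 had 5 in GFP-(GR)50 replicate 2 and NCL had 7 with GFP-(GP)10, all of the last on the snoRNA SNORA75. Of these genes, 1 of 2 with a region passed 2-fold on the lower side against GFP-(GP)10 (24.8% of all names). It is NCL, which repeats the call of SNORA75 and was fixed in the same way.

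Besides the members, 14 names outside rRNA were listed in all 5 libraries. By the distance between log2 shares outside rRNA, each less its own mean, over the 5 libraries, none lay closer to the U3 sum than 2.06. The nearest was the lncRNA XIST at 2.06, followed by CROCC at 2.83, whose listed regions all carry a U1 snRNA or tRNA gene within it. The U1 genes RNU1-28P, RNU1-27P and RNVU1-18 followed at 2.91, 2.92 and 2.98. These distances lean on GFP-(GR)50 replicate 1, where XIST had 5 reads, the minimum, and the U3 sum was 5.34 with 3 genes unlisted. With unlisted genes at 5 reads that sum would be 20.34, and the order of the names was not tested with it. RNU1-28P had 29.26 reads with GFP and 12.06 with GFP-(GR)50 in experiment 1, and 31.31 without transfection, 5.91 with GFP-(GP)10 and 17.62 with GFP-(GR)50 in experiment 2. By listed reads it was thus lower with GFP-(GR)50 than without transfection, where U3 was higher.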

How the data were processed

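The submitters' processing notes name featureCounts 2.0.2, bedtools 2.30.0, UMI-tools 1.1.2 and Novoalign 4.03.03, with the builds hg38 and GRCh38.p13, without their roles. The sources used here do not say how regions were called or how the scaling was done. Per the file headers, the deposited values are a count of uniquely mapping reads per region, with a few values not whole in GFP-(GR)50 replicate 2 (taken as an expected count), and an expected count that adds multimapping reads scaled by the authors. Neither is normalised for depth, and the depth of a library beyond its listed regions is unknown here.

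rRNA regions were those with an rRNA type, repeat or gene name. Unannotated regions of the contig ML143377.1, at least 100 bp wide and within 5 bp and within 5% or 2 reads of annotated rRNA in that list, were counted with them. Gene names were split at commas and reads summed per name. Ratios have exact conditional binomial 95% intervals. Fisher tests (SciPy 1.17.1, Python 3.11.15, threshold 0.05) used rounded reads. The procedure was tested on simulated independent reads, deeper than the listed ones and with larger changes than U3 showed outside rRNA. That simulation does not cover low or shared reads such as those of U3. Named genes are the members, small RNA names listed in at least 2 libraries (up to 8 by reads), lists of related proteins, and the 5 names most like U3; SNORD3D regions and the single-library names given with a list were described by the same tables. RPPH1, the proteins' names and the class comparison were chosen or worded with values seen. The members and lists were chosen with earlier results of these data known. Alternatives covered the total, the minimum of reads, the fold and the overlap. One named small RNA is not reported here.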

Additional observations from a re-analysis of the deposited data

How the results depend on the processing

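Of 77 alternative values, 31 moved beyond the interval of the reported value or past 1.5 times a count, and a further 3, all ratios to untransfected cells, fell below 1 where the reported interval lay above it. The reported ratio to GFP-(GP)10, 1.55, has an interval that reaches below 1, and it also crossed 1 with these same 3 totals and, at 0.996, for SNORD3A alone. The total that shares are taken of changed most. Of all listed reads the U3 shares were 0.231% (GFP) and 0.00944% (GFP-(GR)50 replicate 1), and 0.215% without transfection, 0.287% (GFP-(GP)10) and 0.0839% (GFP-(GR)50 replicate 2), with ratios of 0.0408 to GFP, 0.391 to untransfected cells and 0.292 to GFP-(GP)10, both across 1. Of snoRNA and scaRNA reads, SNORD3D included, the 4 U3 genes made up 55.8%, 32.7%, 83.0%, 63.8% and 54.6% in the same order, and the ratios of replicate 2 were 0.657 to untransfected cells and 0.855 to GFP-(GP)10, both across 1. With matching contig regions kept in, the share of replicate 2 was 0.344% and its ratios were 0.907 and 0.509, both across 1. Of named regions alone, an alternative chosen after seeing the data, the shares were 1.03% in replicate 1, 0.817% in untransfected cells and 2.26% in replicate 2, and the ratio to GFP was 1.46. With at least 10 reads per region the shares were 1.36% in untransfected cells and 3.05% in replicate 2, with a ratio of 2.24, and 0 U3 regions were left in replicate 1 and with GFP-(GP)10. The ratio of replicate 1 to GFP was 1.94 with unlisted genes at 5 reads and 1.93 for SNORD3A alone, both chosen after seeing the data. With all controls summed, the ratio of replicate 2 was 2.68. Names past 2-fold numbered 92 against GFP and 211 against untransfected cells, and 194 and 720 when shares were taken of all listed reads. Past 4-fold there were 56 against untransfected cells and 80 against GFP-(GP)10, where 171 had passed 2-fold. Without 1 of the GFP-(GR)50 libraries the mean share ran from 0.327% to 1.61%. Uniquely mapping reads gave no value, since U3 has 0, and no repeat annotation named U3, so that alternative added no region. No paired analysis was possible because no control group was in both experiments. The minimum of 5 reads limits GFP-(GR)50 replicate 1 most, where 3 of 4 genes lie below it.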

Other observations

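In the GFP list the lower coordinate of all 4 U3 regions was 1 base above that of experiment 2, on both strands, with the same upper coordinate. RMRP differed in another way: its region ran from 35657752 to 35658020 on chromosome 9 in GFP and from 35657751 to 35658019 in GFP-(GR)50 replicate 2, so there both ends differed by 1 base. In GFP-(GR)50 replicate 1 the RMRP region ended at 35657928, and its listed part, on the minus strand, was 177 bp against 268 bp in the other libraries that list it.

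GFP-(GR)50 replicate 2 listed a region typed as snoRNA under the name U8 on chromosome 11 (123301481 to 123301526, plus strand) with 11 uniquely mapping reads, more than the 7 at SNORD118, the gene of U8 on chromosome 17. No other library listed that region. The U8 name was chosen after its value was seen.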
